A study of Mus musculus with 12 samples.

Results

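The receptors for the constant part of IgG, and the adaptor chain they signal through, are represented by 4 genes among the 770 genes of the NanoString nCounter Neuroinflammation panel: *Fcgr1*, *Fcgr2b*, *Fcgr3* and *Fcer1g*. They were taken from the panel by their gene symbols and not by their values, and all 4 had a value in every sample. Their RNA was measured in sorted mouse microglia, with color-coded probes that count single RNA molecules without amplification. The groups were microglia of aged mice with high phosphorylation of ERK1/2 (P-ERK1/2 High, samples 2, 5, 7 and 8), microglia of aged mice with low phosphorylation (P-ERK1/2 Low, samples 3, 6, 9 and 12) and microglia of adult mice that were not separated by phosphorylation (samples 1, 4 and 10). A further adult sample, number 11, was marked by the authors as excluded for poor quality and enters only where it is named.

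Per the labels, the mice were of the C57B6 strain and are called untreated, aged meaning over 80 weeks and adult meaning 12 to 20 weeks. The sample type field reads aged for all 12 samples, so that the groups were taken from the sample titles. Per the methods of the study, the mice carried a Cx3cr1-driven Cre and an eYFP reporter, each sample pooled a male and a female mouse, and the cells were enriched with CD11b beads, fixed, permeabilized and sorted. The sort kept cells positive for the reporter, intermediate for CD45 and negative for Ly6G, a gate meant to remove neutrophils and blood-derived cells high in CD45. The Cre is induced by tamoxifen, which the study describes as recent in the adult mice and given long before sampling in the aged mice, despite the label untreated. Age and time since tamoxifen thus cannot be told apart in comparisons with adult microglia. The pools of a group are separate samples, and p-values measure the spread between them. An aged pool may have given both a High and a Low sample, but the labels do not tie the samples to each other.

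Fc gamma receptors bind antibody that coats a target and couple it to uptake, cytokine release or restraint of both. *Fcgr1* encodes the high-affinity activating receptor (CD64) and *Fcgr3* the low-affinity activating receptor (CD16). Both signal through the common gamma chain encoded by *Fcer1g*, whose activation motif (ITAM) is phosphorylated by Src family kinases and recruits Syk. *Fcgr2b* encodes the inhibitory receptor (CD32B), which carries its own inhibitory motif and opposes the activating receptors through the phosphatase SHIP1, so that the balance of *Fcgr2b* to the activating receptors sets how a macrophage or microglial cell answers to immune complexes.

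*Fcgr2b*, *Fcgr3* and *Fcer1g* lie close together on mouse chromosome 1, with *Fcgr4*, which the panel does not hold, between *Fcgr2b* and *Fcgr3*. *Fcgr1* lies on chromosome 3. The 120 bases before the annotated start of each gene are shown because the 4 transcripts differed in how they changed, and the sequences allow their upstream regions to be set side by side. They are from the RefSeq promoter table of build GRCm38.p6, all from the minus strand and written 5′ to 3′, at chr3:96293970-96294089 (*Fcgr1*), chr1:170976072-170976191 (*Fcgr2b*), chr1:171059404-171059523 (*Fcgr3*, the first of 2 starts in the table) and chr1:171234350-171234469 (*Fcer1g*). Capitals mark the matches to the motifs named below.
Fcgr1: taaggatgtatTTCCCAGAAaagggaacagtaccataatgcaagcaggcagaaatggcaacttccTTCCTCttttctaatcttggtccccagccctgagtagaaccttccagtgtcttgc
Fcgr2b: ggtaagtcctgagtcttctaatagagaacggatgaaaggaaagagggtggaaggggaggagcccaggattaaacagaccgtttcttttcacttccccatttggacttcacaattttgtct
Fcgr3: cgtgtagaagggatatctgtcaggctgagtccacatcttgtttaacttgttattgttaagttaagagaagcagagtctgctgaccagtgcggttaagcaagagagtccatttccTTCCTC
Fcer1g: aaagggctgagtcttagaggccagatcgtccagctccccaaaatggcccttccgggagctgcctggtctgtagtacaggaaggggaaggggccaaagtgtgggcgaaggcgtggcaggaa

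The 250 bases before each start were searched on both strands for the interferon gamma activation site TTCNNNGAA, the core GAGGAA bound by the myeloid factor PU.1 and the AP-1 site TGANTCA. The first was found in *Fcgr1* alone, as TTCCCAGAA from -109 to -101. The PU.1 core was found on the opposite strand in *Fcgr1*, from -55 to -50, and in *Fcgr3*, from -6 to -1. The AP-1 letters were in none of the 4 windows. Of all 27018 promoters of this length, 7.18% held TTCNNNGAA, 23.1% held GAGGAA and 6.87% held TGANTCA, so that 1 match to the first and 2 to the second among 4 genes describe these windows only.

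The values are counts that the authors scaled in each sample to the same geometric mean of 13 housekeeping genes. From the steps between values, total counts ranged from 650965 to 1539936 for High, from 123798 to 157209 for Low and from 137980 to 326575 for adult microglia. The background of a sample was taken as the mean of its 8 negative controls plus 2 SD. In High samples 589 to 673 genes were above it, in Low samples 410 to 484 and in adult samples 417 to 560. On the normalized scale, background was at 26.1 to 39.5 in High, 69.2 to 117 in Low and 37.9 to 95.1 in adult samples. All 4 transcripts exceeded it in every sample. Of 10 microglia markers, 9 were above background in all High samples, 4 in all Low samples and 6 in all adult samples, and *P2ry12*, *Gpr34* and *Slc2a5* were above it in no Low sample. In bulk samples, fewer cells of a type and less RNA per cell cannot be told apart.

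*Fcgr1*, the high-affinity activating receptor, was lower in P-ERK1/2 High than in P-ERK1/2 Low microglia with the adult mean in between. Its normalized values were 130.25, 130.8, 102.19 and 134.3 in High samples 2, 5, 7 and 8, and 247.34, 290.98, 259.49 and 258.44 in Low samples 3, 6, 9 and 12. Every High sample lay below every Low sample. The adult samples 1, 4 and 10 had 161.09, 132.75 and 212.49, so that adult sample 4 fell within the High range and all 3 fell below the Low range. The group means were 124 ± 14.9 (SD, n = 4) in High, 264 ± 18.8 (n = 4) in Low and 169 ± 40.4 (n = 3) in adult microglia.

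*Fcgr2b*, the inhibitory receptor, followed the same order of Low above the other groups, with a wider spread. It had 604.99, 195.13, 243.67 and 494.12 in the High samples and 931.77, 827.36, 810.58 and 1082.99 in the Low samples. The adult values were 397.06, 603.21 and 343.44. The lowest Low sample was above all High and all adult samples, and the High and adult ranges overlapped. The means were 384 ± 197 (SD, n = 4) in High, 913 ± 125 (n = 4) in Low and 448 ± 137 (n = 3) in adult microglia.

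*Fcgr3*, the low-affinity activating receptor, was lowest in adult microglia. The adult samples had 147.48, 220.09 and 205.07, against 487.91, 536.38, 422.68 and 512.78 in the Low samples. The High samples ran from 303.19 in sample 7 through 555.08 in sample 2 and 979.38 in sample 8 to 1445.25 in sample 5. Every aged sample was above every adult sample, and the High samples lay on both sides of the narrow Low range. The means were 821 ± 501 (SD, n = 4) in High, 490 ± 49.0 (n = 4) in Low and 191 ± 38.3 (n = 3) in adult microglia.

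*Fcer1g*, the common gamma chain, had the adult samples at the bottom as well, at 1590.49, 1779.35 and 1885.21. The Low samples were close together at 2741.08, 2762.56, 2712.64 and 3002.84. The High samples had 2947.04, 5096.98, 2304.24 and 3987.19, again with sample 5 highest and sample 7 lowest. No aged sample fell into the adult range, whereas the High and Low ranges overlapped. The means were 3584 ± 1224 (SD, n = 4) in High, 2805 ± 134 (n = 4) in Low and 1752 ± 149 (n = 3) in adult microglia.

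**Figure D1:**
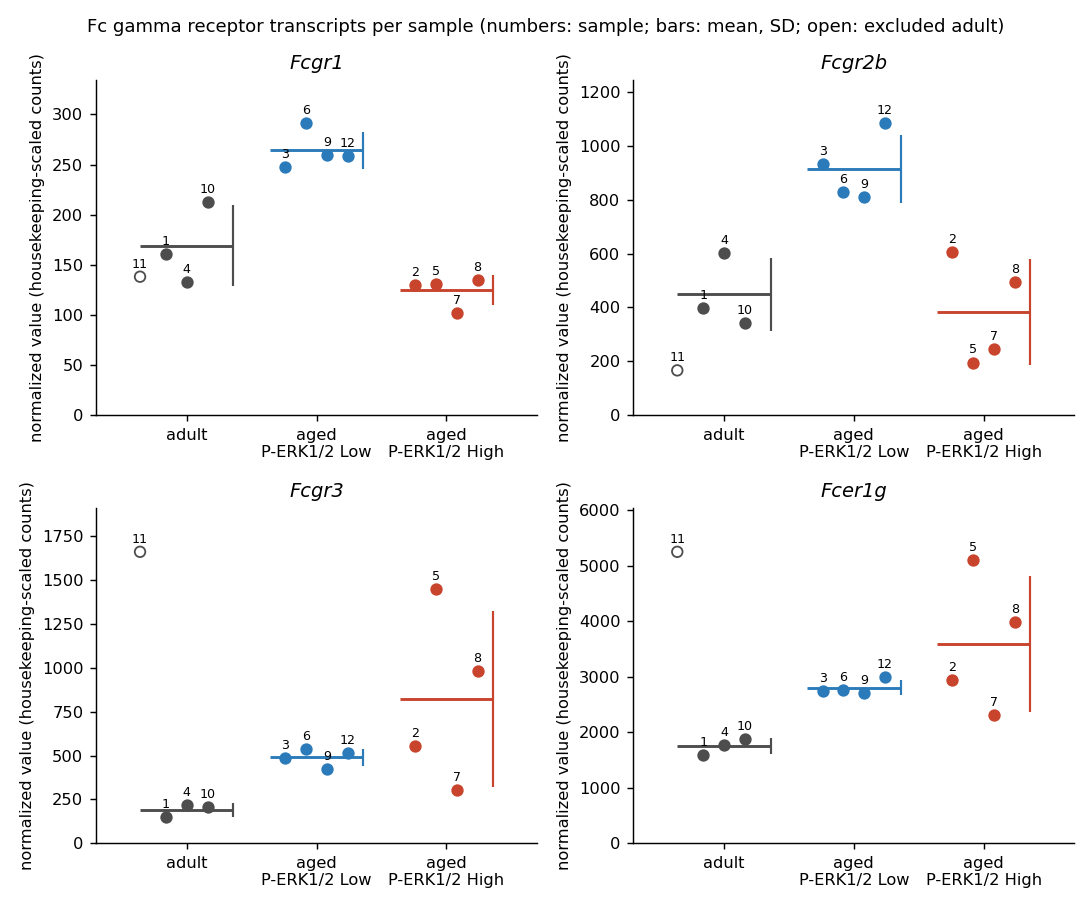
Normalized value (y axis, housekeeping-scaled counts) of each Fc gamma receptor gene in each sample, by group on the x axis, with the sample number at each point, the group mean as a horizontal line and the SD as a vertical line. The open circle is the excluded adult sample 11, which enters neither mean nor SD. All 4 P-ERK1/2 Low samples lie above all High samples for Fcgr1 and Fcgr2b, and all aged samples lie above the 3 kept adult samples for Fcgr3 and Fcer1g.

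The first question was which of these transcripts differ between microglia of the same age that differ in ERK1/2 phosphorylation. In limma, fitted over all 770 genes, a call needed an unadjusted p under 0.01 together with a log2 fold change over 1 in size. By this rule, *Fcgr1* and *Fcgr2b* were called lower in P-ERK1/2 High, where 9.61% of all genes were called lower and 37.8% in either direction, and both had no overlap of the groups, as 18.1% of all genes had in that direction. The log2 fold change was -1.09 ± 0.20 (SE) for *Fcgr1* (limma, adjusted p = 0.00095) and -1.39 ± 0.34 for *Fcgr2b* (limma, adjusted p = 0.0052). By the size of their increase the genes ranked 714 and 750 of 770. Without High sample 7, which had the lowest *Fcgr1* value, the *Fcgr1* change was -0.99 and just inside the fold limit.

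*Fcgr3* and *Fcer1g* were not called, with log2 fold changes of 0.52 ± 0.40 (limma, adjusted p = 0.3) and 0.29 ± 0.26 (limma, adjusted p = 0.36). Both values moved when single High samples were left out. *Fcgr3* had 0.17 without sample 5 and 0.92 without sample 7 (limma, adjusted p = 0.71 and 0.024), within the fold limit, and *Fcer1g* had 0.10 and 0.48 (limma, adjusted p = 0.72 and 0.096). The activating receptor with high affinity and the inhibitory receptor were thus both called lower in High, while the low-affinity activating receptor and the shared adaptor were not called.

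These values depend on the scaling between samples, for a reason that was not tested. Every High library held more counts than every Low library. Housekeeping genes also differed between the groups, in both directions. *Gusb* had means of 3334 in High and 1852 in Low, and *Lars* had 139 and 310. Across all 770 genes, the median log2 difference of High against Low was 0.26 as deposited, 0.00 with median-of-ratios scaling, 1.02 with the 6 most stable housekeeping genes, -0.33 with the 75th percentile, -0.76 with the sum of all genes and 1.90 in unscaled counts. Relative to that median, *Fcgr1* lay between -1.71 and -1.32 and *Fcgr2b* between -2.05 and -1.62 over 7 settings, those 6 and subtraction of background. *Fcgr3* lay between -0.07 and 0.29 and *Fcer1g* between -0.35 and 0.07. Those 6 settings differ by a factor per sample that all genes share, so values relative to the median cannot differ beyond the pseudocount. Only subtraction of background could move them further, and it gave the lower end of each range. The ranges are thus no measure of stability. On the scale of each setting itself, the *Fcgr1* and *Fcgr2b* changes missed the call with the 6 stable housekeeping genes (-0.32 and -0.62) and changed sign in the unscaled counts (0.58 and 0.29), whereas those of *Fcgr3* and *Fcer1g* changed sign with the 75th percentile, the sum of all genes and quantile normalization.

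**Figure D2:**
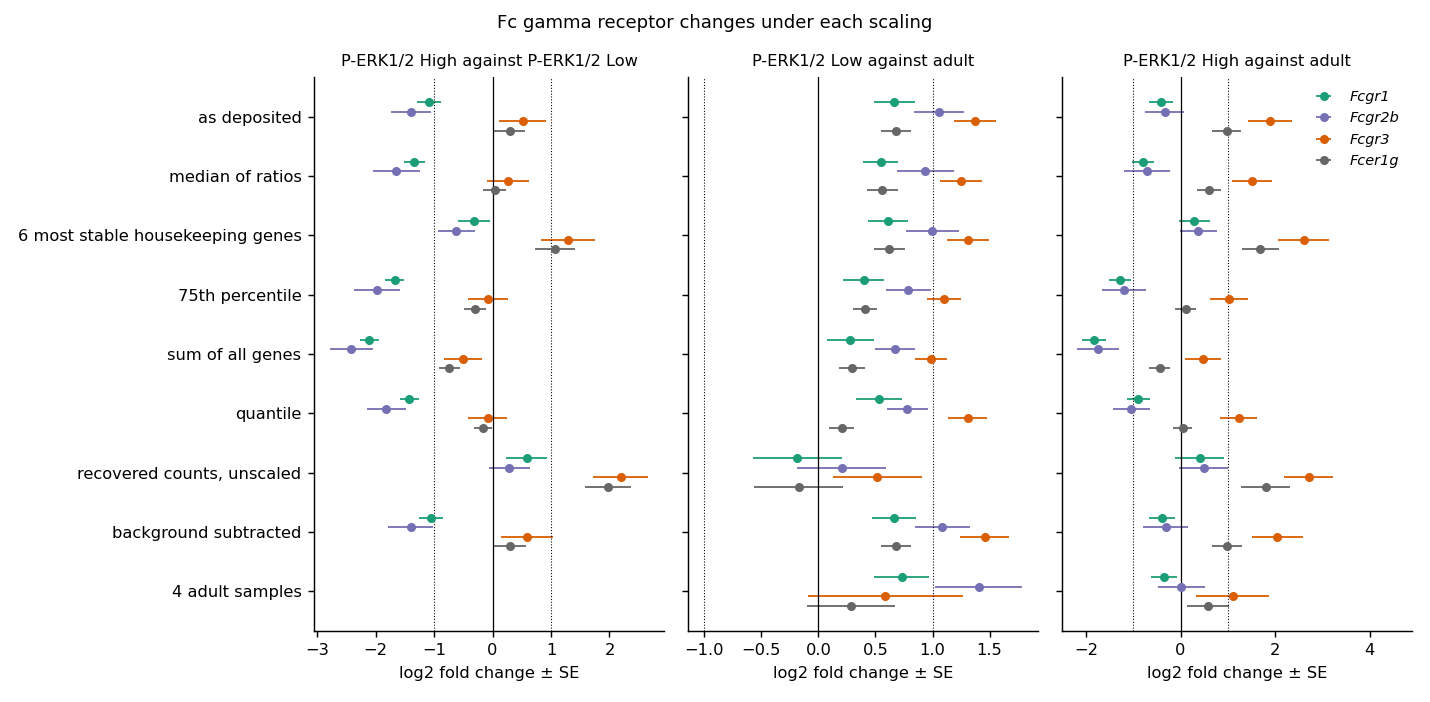
Log2 fold change ± SE (x axis) of the 4 genes in each of 3 comparisons (panels, each with its own x range), under the deposited scaling and 8 alternatives (y axis, the last one for the adult comparisons only), with dotted lines at the fold limit of 1 in either direction. In P-ERK1/2 High against Low, Fcgr1 and Fcgr2b lie to the left of Fcgr3 and Fcer1g under every setting. Fcgr1 and Fcgr2b are negative under every scaled setting. They are positive only in the unscaled counts (0.58 and 0.29), in which the median of all genes is 1.90. The signs of Fcgr3 and Fcer1g differ between scaled settings, as the sum of all genes shows (-0.51 and -0.74).

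A ratio of 2 of these transcripts within a sample does not depend on the scaling factor, apart from the pseudocount of 1. The probes may differ in efficiency, so the ratios are compared between samples and their size carries no meaning. The ratio of the *Fcgr2b* to the *Fcgr3* value was 1.09, 0.135, 0.804 and 0.505 in High samples 2, 5, 7 and 8. It was 1.91, 1.54, 1.92 and 2.11 in Low samples 3, 6, 9 and 12. It was 2.69, 2.74 and 1.67 in adult samples 1, 4 and 10. Every High sample had a lower ratio of the inhibitory to the low-affinity activating receptor than every Low and every adult sample, and the Low and adult ranges overlapped.

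On the log2 scale this ratio was -1.01 ± 1.33 (SD, n = 4) in High and 0.89 ± 0.19 (n = 4) in Low, a 3.75-fold difference (exact two-sided permutation test, p = 0.029, adjusted p = 0.11). That p is the smallest that 4 samples against 4 allow, and the adjustment covers 18 tests, 6 pairs in 3 comparisons. The same p and adjusted p, without overlap of the groups, were found in exact permutation tests of *Fcgr2b* to *Fcer1g* (3.21-fold lower in High), *Fcgr1* to *Fcgr3* (3.04-fold lower) and *Fcgr1* to *Fcer1g* (2.6-fold lower). The pairs *Fcgr1* to *Fcgr2b* (log2 difference 0.30, exact permutation p = 0.49) and *Fcgr3* to *Fcer1g* (0.23, exact permutation p = 0.40) overlapped between High and Low. The 6 ratios share 4 values per sample and are not independent. With samples of this number and this form of two-sided p, the adjusted p over 18 tests cannot fall below 0.057. None of the ratios could therefore pass 0.05 after adjustment in this test. High sample 5 had the lowest *Fcgr2b* to *Fcgr3* ratio, and without it the log2 difference was -1.28, the smallest of the 8 values with 1 sample left out.

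**Figure D3:**
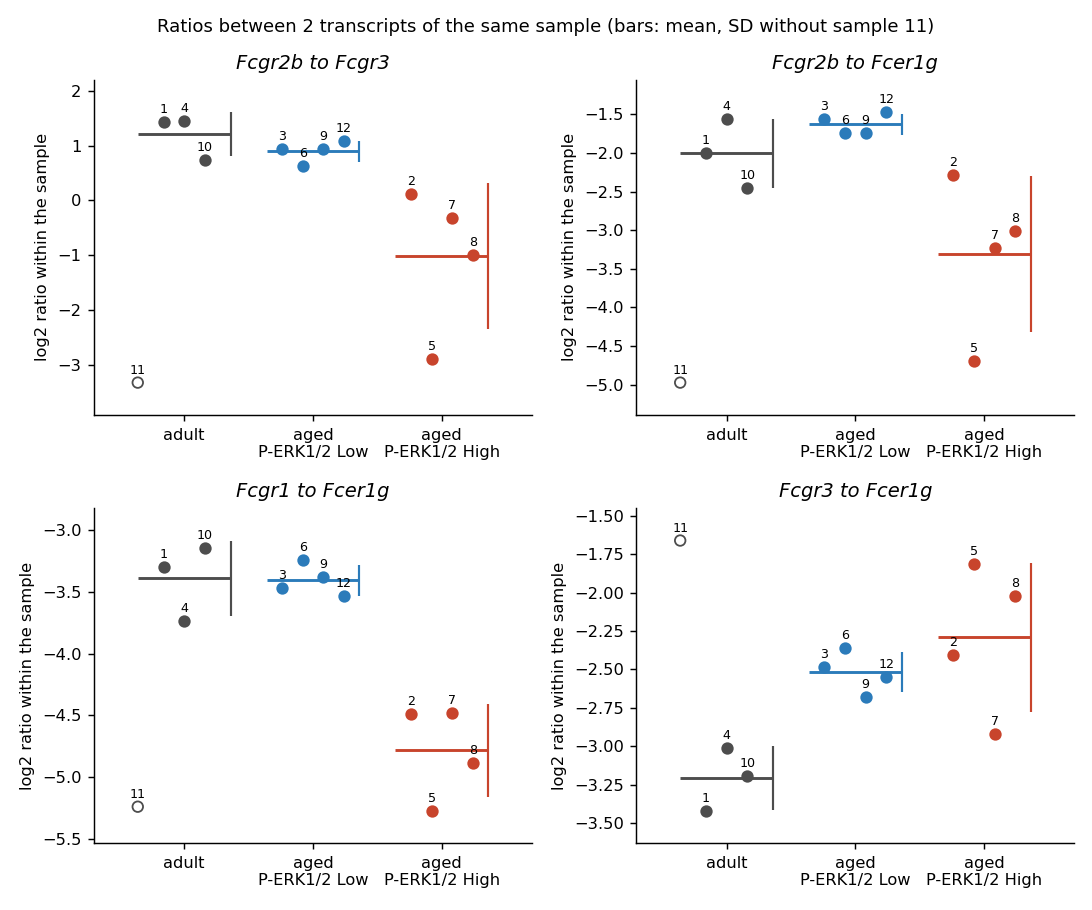
Log2 ratio of 2 transcripts within each sample (y axis) for 4 pairs of genes (panels), by group on the x axis, with sample numbers, group means (horizontal lines) and SD (vertical lines). The open circle is the excluded adult sample 11. The P-ERK1/2 High samples lie below all Low samples for Fcgr2b to Fcgr3, Fcgr2b to Fcer1g and Fcgr1 to Fcer1g, and on both sides of them for Fcgr3 to Fcer1g.

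The second question was how aged microglia with low phosphorylation differ from adult microglia. All 4 transcripts were higher in every P-ERK1/2 Low sample than in every adult sample, a pattern that 26.1% of all genes showed. *Fcgr3* and *Fcgr2b* were called higher, where 8.05% of all genes were called higher and 10.8% in either direction. The log2 fold change was 1.37 ± 0.18 (SE) for *Fcgr3* (limma, adjusted p = 0.0019), which ranked 27 of 770 by increase, and 1.06 ± 0.22 for *Fcgr2b* (limma, adjusted p = 0.011), which ranked 58. *Fcer1g* (0.68 ± 0.13; limma, adjusted p = 0.0085) and *Fcgr1* (0.67 ± 0.18; limma, adjusted p = 0.032) stayed within the fold limit.

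The *Fcgr2b* call lies close to the limit. It was lost without Low sample 12 (0.97), without adult sample 1 (0.99) or without adult sample 10 (0.89), and under 5 other scalings. The *Fcgr3* call was lost with the sum of all genes (0.98) and in unscaled counts (0.52). Relative to the median of all genes, *Fcgr3* was higher by 1.25 to 1.42, *Fcgr2b* by 0.94 to 1.05, *Fcer1g* by 0.56 to 0.64 and *Fcgr1* by 0.55 to 0.62 over the same 7 settings. Apart from the pseudocount, only subtraction of background could move these values. In unscaled counts, *Fcgr1* (-0.18) and *Fcer1g* (-0.17) changed sign. In adult sample 1 the *Fcgr3* and *Fcgr1* counts were 1.55 and 1.69 times background, which leaves its values for these genes the least certain.

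Within samples, *Fcgr3* stood higher against its adaptor in Low, with a log2 ratio of *Fcgr3* to *Fcer1g* of -2.52 ± 0.13 (SD, n = 4) in Low and -3.21 ± 0.21 (n = 3) in adult microglia and no overlap (exact permutation p = 0.057, the smallest that 4 samples against 3 allow, adjusted p = 0.11). A permutation test of this kind on 4 samples against 3 cannot pass 0.05, since its two-sided p doubles that of the smaller tail. The other 5 ratios overlapped between Low and adult samples, *Fcgr2b* to *Fcgr3* among them (log2 difference -0.31, exact permutation p = 0.23).

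In P-ERK1/2 High against adult microglia, *Fcgr3* was the only one of the 4 called, with a log2 fold change of 1.89 ± 0.47 (SE; limma, adjusted p = 0.0073), where 29.2% of all genes were called higher and 36.9% in either direction. *Fcgr3* and *Fcer1g* were higher in every High than in every adult sample, as 35.1% of all genes were. The *Fcer1g* change was 0.97 ± 0.30 (limma, adjusted p = 0.021), within the fold limit. *Fcgr1* (-0.42 ± 0.26; limma, adjusted p = 0.2) and *Fcgr2b* (-0.33 ± 0.41; limma, adjusted p = 0.54) overlapped with the adult samples. Relative to the median of all genes, *Fcgr3* was higher by 1.41 to 1.55 and *Fcer1g* by 0.35 to 0.63 over the 7 settings, and *Fcgr1* lay between -1.03 and -0.76 and *Fcgr2b* between -0.95 and -0.67. Here too, only subtraction of background could move the values beyond the pseudocount. On their own scales, the *Fcgr3* call was lost with the 75th percentile (1.02), the sum of all genes (0.48) and quantile normalization (1.23), with no change of direction. *Fcer1g* was called with the 6 housekeeping genes (1.68) and turned with the sum (-0.44). *Fcgr1* was called with the 75th percentile (-1.28) and the sum (-1.82), *Fcgr2b* with the sum (-1.74), and both turned with the 6 housekeeping genes (0.29 and 0.38) and in unscaled counts (0.40 and 0.49).

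The comparisons share their samples pairwise and are not independent of each other. The levels of *Fcgr3* and *Fcer1g* were set side by side in the order adult, Low, High, in which Low and High did not differ beyond their spread. Those of *Fcgr1* and *Fcgr2b* were in the order High, adult, Low, in which High and adult did not differ beyond theirs.

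The excluded adult sample 11 stood apart from the 3 kept adult samples for these genes. It had 1659.13 for *Fcgr3* and 5251.2 for *Fcer1g*, above every other sample of any group, and 165.99 for *Fcgr2b*, below every other sample. Its *Fcgr1* value of 138.07 was within the kept adult range. Its ratio of *Fcgr2b* to *Fcgr3* was 0.1, below all 11 other samples. The geometric mean of its positive control probes was 286 counts, against 954 to 1460 in the others, and its total count of 1464433 was within the High range. With sample 11 among the adults, the *Fcgr3* change fell to 0.59 in Low against adult and to 1.10 in High against adult, and neither was called. High sample 5 had both the largest total count of the High samples and the values nearest to those of sample 11 for *Fcgr2b*, *Fcgr3* and *Fcer1g*. Over all High samples, *Fcgr3* and *Fcer1g* rose in the order of total count. That order was sample 7 (650965), 2 (718671), 8 (817268) and 5 (1539936). *Fcgr1* and *Fcgr2b* did not follow it, and *Fcgr3* and *Fcer1g* did not follow total count within the Low or the kept adult samples. The part of the total count in these values was not tested.

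The genes that act with these receptors were described from lists of 37 panel genes, compiled from general knowledge: Fc receptor-like genes, the other ITAM adaptor, proximal kinases and adaptors, PI3K subunits, effectors of uptake and inhibitory signals. In P-ERK1/2 High against Low, 7 of the 37 were called higher (28.2% of all genes) and 7 were called lower (9.61%), with a median log2 fold change of -0.12 against 0.26 over all genes. In Low against adult, 1 was called higher and 1 lower (8.05% and 2.73% of all genes), with a median of 0.24 against 0.10. In High against adult, 7 were called higher and 3 lower (29.2% and 7.66% of all genes), with a median of -0.08 against 0.35. With the 75th percentile or the sum of all genes, 22 and 23 of the 37 were called in High against Low, in place of 14, while 324 and 370 of all 770 genes were called, in place of 291. With the 6 stable housekeeping genes 14 were called again, beside 365 of all genes, but the median of all genes moved to 1.02. The same number thus need not be the same genes or directions. The calls of single list genes below hold for the deposited scaling only. The excluded adult sample 11, not separated by phosphorylation, is not among these samples. Its value lay nearer to the High than to the kept adult mean for every list gene called in High against Low except *Tyrobp*. It had 6089 for *Akt1*, 759 for *Dock1*, 69.8 for *Was*, 42.7 for *Akt2* and 5341 for *Tyrobp*. Levels near those of High were thus not limited to samples sorted as High. The cause was not tested.

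Among the Fc receptor-like genes, *Fcrls*, a gene enriched in microglia, was called lower in both aged groups than in adult microglia. It had 672 ± 156 (SD, n = 3) in adult, 137 ± 37.0 (n = 4, above background in 3) in Low and 262 ± 190 (n = 4) in High microglia. The log2 fold change was -2.31 ± 0.26 (SE; limma, adjusted p = 0.001) in Low and -1.57 ± 0.44 (limma, adjusted p = 0.014) in High against adult, and 0.74 ± 0.41 (limma, adjusted p = 0.14) in High against Low. *Fcrla* and *Fcrlb*, which are known from B cells, were above background in no sample of any of the 3 groups.

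*Tyrobp*, which encodes the ITAM adaptor DAP12 of TREM2 and other receptors, was called lower in High against Low, like *Fcgr1* and *Fcgr2b*, whereas the adaptor *Fcer1g* was not called. It had 4331 ± 851 (SD, n = 4) in High and 8878 ± 1438 (n = 4) in Low microglia, a log2 fold change of -1.05 ± 0.23 (SE; limma, adjusted p = 0.0029). In adult microglia it had 5262 ± 759 (n = 3), with a log2 fold change of 0.75 in Low (limma, adjusted p = 0.017) and of -0.29 in High (limma, adjusted p = 0.38), neither called.

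Of the 7 proximal signalling genes, 2 were called lower and none higher in High against Low, and 4 had an adjusted p under 0.05 in the lower direction in limma, as 18.2% of all genes had. *Vav1*, an exchange factor for Rac, had a log2 fold change of -1.25 ± 0.31 (SE; limma, adjusted p = 0.0047). Its means were 354 ± 127 (SD) in High and 793 ± 84.0 in Low. The kinases that start the ITAM signal are given for their known role, chosen after their values were seen. *Lyn* had -1.08 (limma, adjusted p = 0.013) and was called, and *Syk* (-0.80, limma, adjusted p = 0.0068) and *Fyn* (-0.80, limma, adjusted p = 0.016) stayed within the fold limit. Between Low and adult samples, *Syk* had 784 ± 66.6 and 728 ± 86.5 and overlapped.

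Of the 7 PI3K subunits, which make the lipid signal for closure of the phagocytic cup, 2 were called higher and 1 lower in High against Low, near the shares of all genes (28.2% and 9.61%). *Pik3cg*, a catalytic subunit best known downstream of G protein-coupled receptors, was called higher in High at 430 ± 179 (SD, n = 4) against 123 ± 13.6 (n = 4) in Low (log2 fold change 1.71; limma, adjusted p = 0.0005). Its Low values ran from 112 to 139, above background in all 4 samples but near the Low background of 69.2 to 117. *Pik3r1*, the regulatory subunit that binds phosphorylated receptors and adaptors, was called lower at 117 ± 30.2 against 248 ± 26.5 (-1.11; limma, adjusted p = 0.0024).

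Among the 16 effectors of uptake, 5 were called higher and 3 lower in High against Low, beside 28.2% and 9.61% of all genes. *Akt1* had 7270 ± 710 (SD, n = 4) in High and 1432 ± 216 (n = 4) in Low (log2 fold change 2.35; limma, adjusted p = 7.4e-06), whereas *Akt2*, its related kinase, had 109 ± 38.2 and 259 ± 54.1 (-1.29). *Dock1*, an exchange factor for Rac, had 856 ± 177 and 170 ± 17.1 (2.30). *Pld1* (136 ± 71.4) and *Prkce* (131 ± 49.1), a phospholipase and a kinase linked to phagosome formation, were above background in all High samples and in no Low sample, and no fold is given for them. Both are among the 5 called higher. Their lowest High values (77.9 and 87.6) were within the range of the Low background, 69.2 to 117, so detection in the groups is not on equal terms. *Was*, the activator of actin branching in haematopoietic cells, had 112 ± 45.9 and 350 ± 38.8 (-1.72), and *Pak1*, a kinase activated by Rac, had 101 ± 22.9 and 230 ± 19.2 (-1.20). *Was* was also the only one of the 37 called higher in Low against adult (log2 fold change 1.11; limma, adjusted p = 0.0024), from 161 ± 18.8 (n = 3).

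In High against adult microglia, 7 genes of the lists were called higher, among them *Dock1* (log2 fold change 2.91), *Akt1* (2.63) and *Pik3cg* (2.16). *Dock1* and *Pik3cg* were above background in 2 of 3 adult samples. *Pld1* and *Prkce* were called as well, but were above background in 1 of 3 adult samples, with adult means of 37.6 ± 7.87 and 46.6 ± 16.9 (SD, n = 3), and no fold is given for them. *Fcrls*, *Vav1* (-1.33; limma, adjusted p = 0.0099) and *Akt2* (-1.20; limma, adjusted p = 0.009) were the genes called lower. The inhibitory signal downstream of *Fcgr2b* had no called gene in any comparison (limma). At an unadjusted p under 0.05 it had 1, 2 and 1 of its 3 genes in High against Low, Low against adult and High against adult, where 451, 302 and 423 of all 770 genes passed. *Inpp5d*, which encodes SHIP1, had a log2 fold change of 0.75 ± 0.37 (SE; limma, adjusted p = 0.11) in High against Low, and *Ptpn6*, which encodes SHP-1, had 0.04 ± 0.27 (limma, adjusted p = 0.92), both within overlapping groups. *Inpp5d* was above background in only 2 of 4 Low samples. Against adult microglia, *Ptpn6* was higher by 0.69 ± 0.14 in Low (limma, adjusted p = 0.011), with every Low sample above every adult sample, and had a log2 fold change of 0.73 ± 0.30 in High with overlap (limma, adjusted p = 0.067), both within the fold limit. *Csk*, the kinase that restrains Src family kinases, had -0.69 ± 0.23 (limma, adjusted p = 0.021), lower in every High than in every Low sample and within the fold limit. The 3 genes of this list are named after their values were seen.

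**Figure D4:**
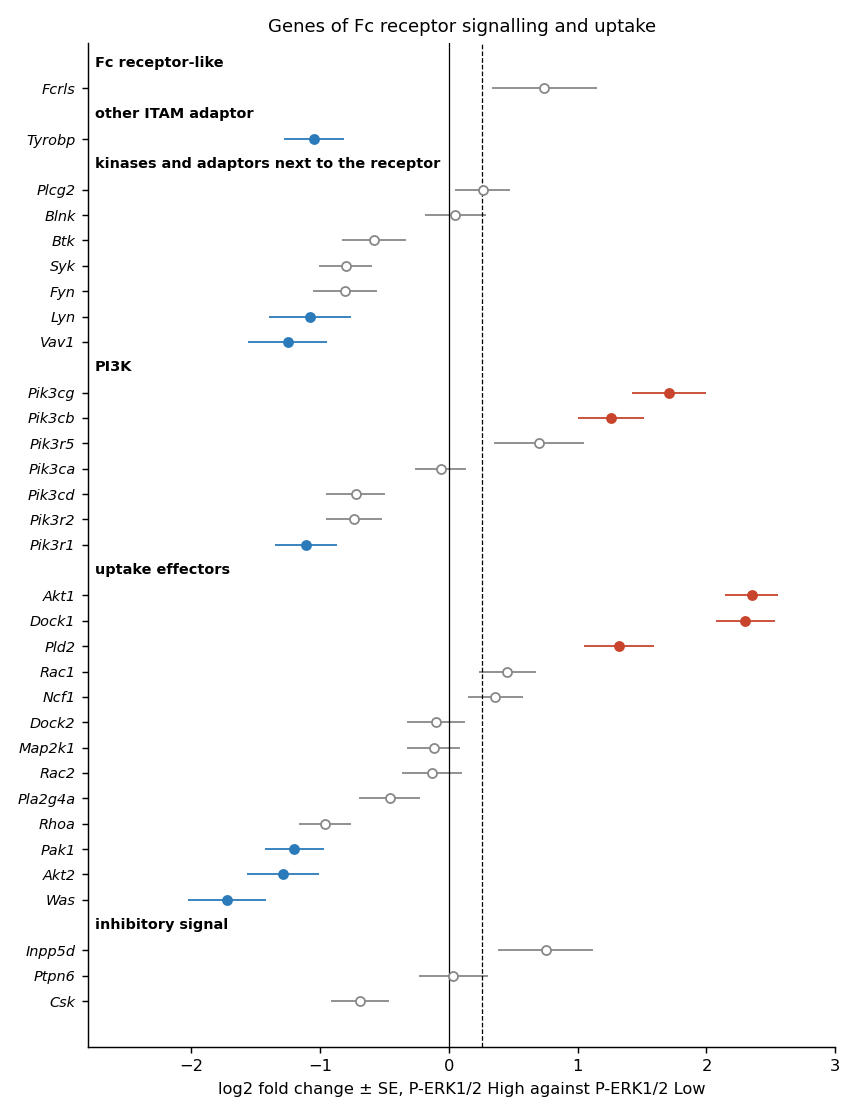
Log2 fold change ± SE (x axis) of High against Low microglia for 32 of the 37 genes of Fc receptor signalling and uptake (y axis), by role, without the 5 genes that were above background in no sample of one of the groups. Red and blue points were called higher and lower, open points were not called, and the dashed line is the median of all genes (0.26). Akt1 (2.35) and Dock1 (2.30) lie farthest to the right and Was (-1.72) farthest to the left.

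The genes whose pattern was most like that of each receptor were found by the SD, over the 11 kept samples, of the log2 ratio of gene to receptor. For *Fcgr1* they were *Psmb8* (SD 0.14), *Csf1r* (0.17), *Irak4* (0.18), *Bcl2a1a* (0.18) and *Gpr183* (0.20), against a median of 0.81 over the panel. For *Fcgr2b* they were *Fscn1* (0.24), *Prkaca* (0.27), *Topbp1* (0.27), *Rps10* (0.30) and *Dapk1* (0.34), against a median of 1.07. For *Fcgr3* they were *Ifitm3* (0.27), *C3ar1* (0.31), *Ncaph* (0.31), *Gsn* (0.32) and *Mpeg1* (0.33), against a median of 1.03. For *Fcer1g* they were *Parp1* (0.15), *Lmna* (0.18), *Psen2* (0.18), *Ptpn6* (0.18) and *Mapk14* (0.19), against a median of 0.74.

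No other receptor of the group was among the 5 nearest genes of any of them. The nearest pairs within the group were *Fcgr3* with *Fcer1g* (SD 0.49) and *Fcgr1* with *Fcgr2b* (SD 0.56). *Fcer1g* ranked 29 among the genes nearest to *Fcgr3*, and *Fcgr3* ranked 159 among those nearest to *Fcer1g*. *Fcgr1* ranked 65 among the genes nearest to *Fcgr2b*, and *Fcgr2b* ranked 209 among those nearest to *Fcgr1*. *Fcgr2b* with *Fcgr3*, both on chromosome 1, had the largest SD of the 6 pairs at 1.28. The probe sequences were not used here, and cross-hybridisation between the related *Fcgr2b*, *Fcgr3* and *Fcgr4* transcripts was not tested.

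Fc gamma receptors are also found on neutrophils, monocytes and B cells (*Fcgr2b*), and *Fcer1g* on mast cells and NK cells, so their markers were set beside the results. The gate for intermediate CD45 and no Ly6G would remove neutrophils and most other leukocytes. Of 6 B cell markers, 2 were above background in all High samples, 5 in at least 1, and none in any Low or adult sample. Their summed values were 244.53 to 539.01 in High, 168.2 to 227.4 in Low and 91.99 to 208.75 in adult samples, and *Ms4a1* was above background in no sample. Of 7 neutrophil markers, 4 were above background in all High, 1 in all Low and 2 in all adult samples, with sums of 415.56 to 1138.65, 450.65 to 527 and 720.83 to 1195.86, and *Ly6g* and *Fpr1* in no sample of the 3 groups.

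Of 6 monocyte and border macrophage markers, 2 were above background in all High samples and none in all Low or adult samples, with sums of 233.57 to 285.91 in High, 181.92 to 241.89 in Low and 178.17 to 269.99 in adult samples. Of 5 mast cell and basophil markers, 2 were above background in at least 1 High sample, 0 in Low and 1 in adult samples, with sums of 108.34 to 247.03, 82.93 to 94.35 and 74.52 to 102.1, and *Cpa3*, *Tpsb2* and *Ms4a2* in none. Of 13 T and NK cell markers, 1 was above background in all High samples, 9 in at least 1, 0 in any Low and 1 in at least 1 adult sample, with sums of 367.61 to 1213.68, 222.07 to 322.51 and 194.46 to 390.39. The total counts and the value of background given above differ between the groups as well. The part of other cells in the High values of *Fcgr3* and *Fcer1g* was not tested.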

How the data were processed

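The 12 samples of sorted microglia were measured with the NanoString nCounter. The deposited values are normalized signal that the authors made from raw counts in nSolver (version not given in the sources used here), and 0 columns of the table were left without a sample. All gene values above 1 (100%) were whole multiples, within 0.1, of the value of 1 count in their sample, and the recovered counts gave the depth. In sample 11, 16 genes were listed at 1, which is no such multiple, and were left out of this check. The control probes stand in the same table as raw counts. Precision is limited by the number of samples, and intervals from counts were not used.

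Each comparison was fitted on its own groups in limma 3.58.1 (R 4.3.3), using log2(value + 1) of all 770 genes with no filter, so that fold changes of low genes are understated. The thresholds for a call are those of the study, a p under 0.01 together with a log2 fold change over 1 in size. Benjamini-Hochberg adjustment ran over all genes, and over 18 tests for the ratios, which were compared by exact two-sided permutation tests in scipy 1.17.1. The fit was tested on simulated data.

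The genes, the lists and the tests were chosen with earlier results of these data known. Named are the 4 genes, the Fc receptor-like genes, *Tyrobp*, in each comparison the called list genes with the 5 largest changes per direction, the 5 genes nearest to each receptor, and markers; others are said to be chosen after their values were seen. The alternatives tried were 0.1 or 20 as the pseudocount, only genes with a mean of 50 or more, 5 other scalings, unscaled counts, 1 fit over 11 samples, an adjusted p under 0.05 without a fold limit, each sample left out, all 4 adult samples and, chosen after seeing the data, background subtraction with a floor of 1.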

Additional observations from a re-analysis of the deposited data

Results flagged for a closer look

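*Fcgr1* in P-ERK1/2 High sample 7 (102.19) stood apart from the other 3 High samples, which had 130.25 to 134.3. The gap to the nearest of them was 0.874 of the whole range of the group, above the 95% critical value of 0.829 for 4 samples. About 1 in 20 groups is expected to be marked in this way, and 1 of the 20 groups looked at was. In the excluded adult sample 11, which was left out of the main comparisons, *Fcgr3* (1659.13) and *Fcer1g* (5251.2) were above every kept adult sample, whose highest values were 220.09 and 1885.21.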

How the results depend on the processing

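Values are log2 fold changes or numbers of genes called. In High against Low, a pseudocount of 20 took *Fcgr1* to -0.98, just within the fold limit. The 6 stable housekeeping genes gave -0.32 for *Fcgr1* and -0.62 for *Fcgr2b*, not called, and 1.06 for *Fcer1g*, called. Changes of sign were -0.077 (*Fcgr3*) and -0.30 (*Fcer1g*) with the 75th percentile, -0.51 and -0.74 with the sum of all genes, -0.082 and -0.16 with quantile normalization, and 0.58 (*Fcgr1*) and 0.29 (*Fcgr2b*) in unscaled counts, where *Fcgr3* (2.19) and *Fcer1g* (1.97) were called and 599 genes in all. Of the pathway genes, 22 and 23 were called with the 75th percentile and the sum, beside 324 and 370 of all genes (main setting 291).

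In Low against adult, *Fcgr2b* was not called with median-of-ratios scaling (0.94), the 6 housekeeping genes (1.00), the 75th percentile (0.79), the sum (0.67), quantile normalization (0.78), unscaled counts (0.21) or 1 fit over 11 samples (1.06). *Fcgr3* was not called with the sum (0.98), unscaled counts (0.52) or all 4 adult samples (0.59). Unscaled counts turned *Fcgr1* (-0.18) and *Fcer1g* (-0.17). An adjusted p under 0.05 alone called *Fcgr1* (0.67) and *Fcer1g* (0.68). The genes called, 83 in the main setting, were 250 unscaled, 132 with background subtracted, 34 with all 4 adult samples and 201 by adjusted p. The pathway genes called, 2 in the main setting, were 1 with median-of-ratios, 75th percentile or sum scaling, 7 unscaled and 10 by adjusted p. With all 4 adult samples the log2 ratio differences became 0.145 (*Fcgr1* to *Fcgr3*), 0.45 (*Fcgr1* to *Fcer1g*) and 0.82 (*Fcgr2b* to *Fcgr3*), all turned in sign, and 1.12 (*Fcgr2b* to *Fcer1g*) and 0.30 (*Fcgr3* to *Fcer1g*).

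In High against adult, the 6 housekeeping genes turned *Fcgr1* (0.29) and *Fcgr2b* (0.38) and called *Fcer1g* (1.68). The 75th percentile called *Fcgr1* (-1.28) and lost *Fcgr3* (1.02). The sum called *Fcgr1* (-1.82) and *Fcgr2b* (-1.74), lost *Fcgr3* (0.48) and turned *Fcer1g* (-0.44). Quantile normalization lost *Fcgr3* (1.23). Unscaled counts turned *Fcgr1* (0.40) and *Fcgr2b* (0.49) and called *Fcer1g* (1.80), as did adjusted p alone (0.97). All 4 adult samples turned *Fcgr2b* (0.014), lost *Fcgr3* (1.10), and gave 49 genes called in place of 284. Pathway genes called, 10 in the main setting, were 20 with the 75th percentile, 25 with the sum and 17 with quantile (316, 402 and 281 of all genes), 2 with all 4 adult samples and 16 by adjusted p. The ratio differences became -1.46 (*Fcgr1* to *Fcgr3*), -0.93 (*Fcgr1* to *Fcer1g*) and -1.09 (*Fcgr2b* to *Fcgr3*) with all 4 adult samples.

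With each sample left out in turn, *Fcgr1* ran from -1.13 to -0.99 in High against Low and *Fcgr2b* from 0.89 to 1.29 in Low against adult. In High against adult, *Fcer1g* ran from 0.78 to 1.16, called without High sample 7. The log2 ratio differences that turned were *Fcgr1* to *Fcer1g* in Low against adult (-0.19 to 0.11) and *Fcgr1* to *Fcgr2b* in High against adult (-0.48 to 0.26), both small. The cause of these changes was not tested. Of 152 values of the 4 genes under alternatives other than leaving out a sample, 108 kept the direction and the side of the threshold and 44 did not. No paired analysis was possible because each sample number belongs to 1 sample. A planned count model on recovered counts was not run. Depth limits the Low and adult samples most, where 410 to 560 genes were above background.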
